A study of Mus musculus with 24 samples.

Results

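Calcineurin is the calcium-activated phosphatase that dephosphorylates NFAT proteins and lets them enter the nucleus. The genes described here are its 3 catalytic subunits (Ppp3ca, Ppp3cb and Ppp3cc), its regulatory subunit (Ppp3r1), and 3 inhibitors (Rcan1, Rcan3 and Cabin1). They are 7 of the 14318 genes tested. A probe set was used where its only listed gene symbol was one of the 7 names, which gave 19 probe sets, all kept by the filter on dim signals. The probe set with the highest mean over the 24 arrays stands for its gene, and the others serve as a check. 1 further probe set lists Ppp3r1 together with Wdr92 and was not used.

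Calcineurin is a heterodimer: a catalytic A subunit binds calmodulin, and a regulatory B subunit binds calcium. In B cells, ligation of the B cell receptor releases calcium and so activates the phosphatase. Rcan1 binds and inhibits calcineurin. In several tissues one of its transcripts starts at a promoter inside the gene that carries clustered NFAT sites, so the inhibitor is itself an NFAT target and closes a negative feedback loop. Rcan3 is a relative of Rcan1, and Cabin1 is a large nuclear protein that binds calcineurin and represses MEF2 factors.

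The arrays measured total RNA from spleen-derived B cells of C57BL/6 mice aged 6 to 8 weeks. In the KO mice (spelled K0 in the labels), Nfatc1 exon 3 is flanked by loxP sites and deleted by mb1-cre, a Cre recombinase driven from the Cd79a locus and thus active throughout the B lineage. This exon encodes the stretch of NFATc1 that binds calcineurin. The WT controls are described only as control mice, and whether they carried Cre or the floxed alleles is not given in the sources used here. Cells of both genotypes were left unstimulated (0 h) or treated for 3, 8 or 16 h with anti-IgM, which engages the receptor in place of antigen, and were enriched for B cells with magnetic beads. Each of the 8 groups holds 3 biological replicates. Whether arrays with the same replicate number share a mouse is not stated.

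All values below are log2 MAS5 signals, in which a difference of 1 is a 2-fold change. The authors scaled each array to a trimmed mean signal between 500.006 and 500.007. Array medians ran from 6.21 to 6.98 and the filter level from 5.375 to 6.42. The 5 measured B cell markers (Cd79a, Cd79b, Ms4a1, Pax5 and Cd22) were above the filter level on all 24 arrays. So were the macrophage markers Csf1r, Adgre1, Lyz2 and Cd68, while Cd14 was above it on 20 arrays and Itgam on 11. Of the 8 T cell markers, Cd8a was above it on 24 arrays, Lat on 22, Thy1 on 10, Cd3g on 5, Cd3d and Cd3e on 4, and Cd4 and Cd8b1 on 0. WT replicate 2 showed male-type expression at each of the 4 times (Xist 6.17 to 6.62, against a median of 13.95 over all arrays), and the other 20 arrays did not. The brightest Nfatc1 probe set was 0.56 higher in KO cells averaged over the times (limma adjusted p = 1.12e-05). Its position relative to exon 3 is not given in the sources used here, so it does not check the deletion. In whole-population RNA, fewer cells of a type and less RNA per cell cannot be told apart.

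Start-site windows are shown first because Rcan1 has one that holds clustered NFAT core matches and one that holds none. The windows come from RefSeq (GRCm38.p6) and run from 250 bases before to 50 bases after each listed start. They are printed 5′ to 3′ on the gene's strand, with matches to the NFAT core GGAAA on either strand in capitals. Of the 7 genes 5 had a window, and Rcan1 had a pair of them, so 6 windows were searched. The outer Rcan1 start lies at chr16:92466120-92466419 (minus strand), and the inner start lies 66091 bases downstream of it, at chr16:92400029-92400328 (minus strand). Ppp3cb, at chr14:20546524-20546823 (minus strand), had the most matches.
Rcan1 outer start: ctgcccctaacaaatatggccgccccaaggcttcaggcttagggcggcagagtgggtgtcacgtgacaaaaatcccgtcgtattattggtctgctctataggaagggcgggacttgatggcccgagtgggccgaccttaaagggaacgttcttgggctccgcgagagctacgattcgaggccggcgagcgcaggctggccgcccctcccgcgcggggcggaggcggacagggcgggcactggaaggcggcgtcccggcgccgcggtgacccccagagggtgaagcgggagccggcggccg
Rcan1 inner start: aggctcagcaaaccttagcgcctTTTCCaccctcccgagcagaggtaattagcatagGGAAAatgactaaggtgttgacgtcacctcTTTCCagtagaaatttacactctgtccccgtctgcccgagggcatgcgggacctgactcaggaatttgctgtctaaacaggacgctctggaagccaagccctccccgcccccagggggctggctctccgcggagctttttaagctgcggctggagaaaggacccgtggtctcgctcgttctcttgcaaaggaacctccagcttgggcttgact
Ppp3cb start: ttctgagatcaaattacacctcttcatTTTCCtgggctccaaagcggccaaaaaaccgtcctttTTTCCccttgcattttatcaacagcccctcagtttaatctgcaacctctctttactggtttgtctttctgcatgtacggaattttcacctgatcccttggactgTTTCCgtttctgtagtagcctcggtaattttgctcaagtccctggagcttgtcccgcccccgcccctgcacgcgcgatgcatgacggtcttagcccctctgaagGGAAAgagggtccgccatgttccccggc

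The inner Rcan1 window held 3 GGAAA matches, with first bases 227, 193 and 163 bases before the start. It also held 1 match to TGANTCA, the AP-1 motif, 110 bases before the start and not overlapping any GGAAA match. The outer Rcan1 window held 0 matches to either motif. Of all 32851 start-site windows of this length in the table, 9.42% held 3 or more GGAAA matches, 7.81% held at least 1 TGANTCA match, and 0.837% held both. The Ppp3cb window held 4 GGAAA matches, a number reached by 2.65% of windows. Rcan3 had 1 match (61.3% of windows have at least 1), and Ppp3r1 and Cabin1 had 0. Ppp3ca and Ppp3cc were not looked up in another source. A match describes letters only. Which of the Rcan1 transcripts each Rcan1 probe set detects is not given in the sources used here.

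**Figure D1:**
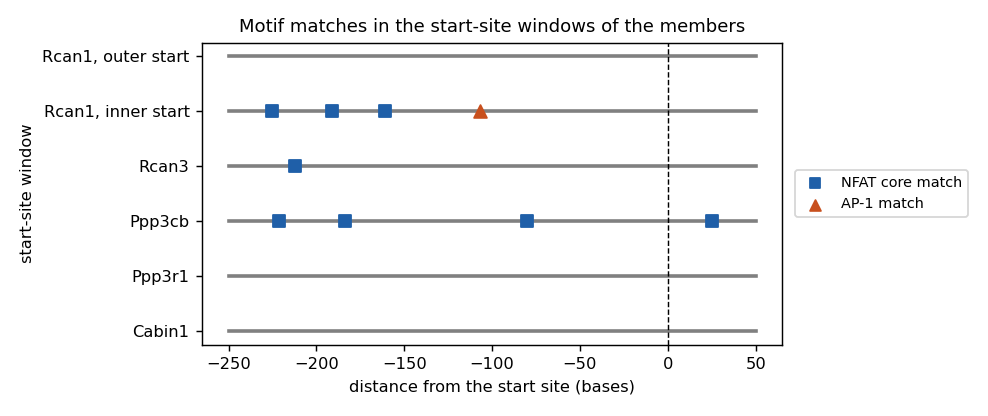
Matches to the NFAT core (blue squares) and AP-1 (orange triangle) motifs in the 6 start-site windows, by distance in bases from the start site (dashed line). The inner Rcan1 start has 3 NFAT core matches and 1 AP-1 match, the outer start has 0, and Ppp3cb has 4 NFAT core matches.

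Rcan1 rose in WT cells after anti-IgM and much less in KO cells. In WT cells the 3 replicates measured 8.21, 8.28 and 8.43 at 0 h, 8.88, 9.15 and 8.73 at 3 h, 9.57, 9.57 and 9.22 at 8 h, and 10.98, 11.37 and 10.74 at 16 h. No WT group overlapped the one before it. In KO cells the values were 8.44, 8.47 and 8.33 at 0 h, 8.77, 8.80 and 8.77 at 3 h, 8.95, 8.34 and 8.97 at 8 h, and 9.10, 9.57 and 9.32 at 16 h. The genotypes overlapped at 0 and 3 h and did not overlap at 8 and 16 h.

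In WT cells the Rcan1 change from 0 h was 0.61 at 3 h (SE 0.183, limma adjusted p = 0.00994), 1.15 at 8 h (adjusted p = 2.16e-05) and 2.72 at 16 h (adjusted p = 3.16e-11), a 6.59-fold rise. That change ranked 101 from the highest among the 14318 genes. The 3 h rise lost its call without WT replicate 2 at 3 h (adjusted p = 0.0623) and without the 4 male-type arrays (adjusted p = 0.107). The WT step from 3 to 8 h was 0.54 (limma adjusted p = 0.0476). Its call held in only 5 of 13 alternatives and 9 of the 24 fits that left out 1 array. The WT step from 8 to 16 h was itself 1.57 (adjusted p = 5.67e-06). In KO cells the change was 0.37 at 3 h (adjusted p = 0.128), 0.34 at 8 h (adjusted p = 0.178) and 0.92 at 16 h (SE 0.183, adjusted p = 0.000287), a 1.89-fold rise. With quantile normalization the KO change at 3 h was 0.54 and passed (adjusted p = 0.0263). KO replicate 2 at 8 h was the lowest of its group, and without that array the 8 h change was 0.55 (adjusted p = 0.0266).

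The genotype difference in Rcan1 opened with time. KO minus WT was 0.11 at 0 h, -0.14 at 3 h, -0.70 at 8 h (95% interval -1.08 to -0.32, limma adjusted p = 0.25) and -1.70 at 16 h (SE 0.183, adjusted p = 3.03e-05). At 16 h the KO signal was 3.25-fold lower, and of all 14318 genes Rcan1 had the smallest p in that comparison. Averaged over the 4 times the difference was -0.61 (SE 0.0916, adjusted p = 0.000519). Without the 4 male-type arrays the 16 h difference was -1.53 (adjusted p = 0.00177) and the averaged one -0.53 (adjusted p = 0.0168). When each genotype and replicate number was averaged over its 4 times, Rcan1 measured 8.81, 8.79 and 8.85 in KO and 9.41, 9.59 and 9.28 in WT. An exact two-sided permutation test of these 3 against 3 means gave p = 0.1, the smallest this design allows.

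The test of the difference itself asks whether the change from 0 h was unequal in the genotypes. For Rcan1 the KO change minus the WT change was -0.24 at 3 h, -0.81 at 8 h (limma adjusted p = 0.999) and -1.81 at 16 h (SE 0.259, 95% interval -2.34 to -1.27, adjusted p = 0.00316). At 16 h the test called 3 of 14318 genes (0.021%), and Rcan1 was the only one with a negative difference. The other 2 were P2ry10 and Rgs2, named here after their values were seen. No gene was called at 3 or 8 h by this limma test, where 330 and 446 genes had an unadjusted p below the limit of 0.05. A joint F-test over the 3 times called Rcan1 (F = 19.2, adjusted p = 0.0282) among 2 genes (0.014%), but this call ended in 5 of 11 alternatives (adjusted p from 0.0636 to 0.316) and without 8 of the 24 single arrays (up to 0.215). The call at 16 h ended when arrays were scaled to their medians (-1.90, adjusted p = 0.0564) and without the 4 male-type arrays (-1.62, adjusted p = 0.0717).

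**Figure D2:**
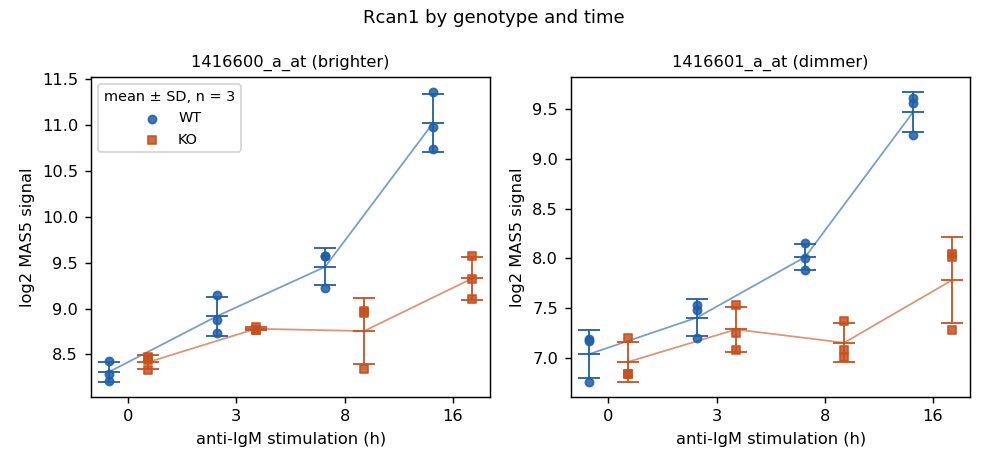
Rcan1 log2 signal against hours of anti-IgM for both probe sets; points are single arrays (blue circles WT, orange squares KO), and bars give the mean ± SD of 3 arrays. WT values climb to between 10.74 and 11.37 at 16 h in the brighter probe set while KO values stay between 9.10 and 9.57, and the dimmer probe set separates at the same times.

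The second Rcan1 probe set gave a similar course at a lower signal. At 16 h it measured 9.56, 9.61 and 9.24 in WT and 7.28, 8.05 and 8.02 in KO, with no overlap. Its KO minus WT difference was -1.69 at 16 h (limma adjusted p = 0.000531) and -0.69 averaged over the times (adjusted p = 0.00233), with p adjusted over all probe sets. It rose by 2.43 in WT and 0.82 in KO from 0 to 16 h, both called. The difference between those changes was -1.61 and did not pass (adjusted p = 0.123), and neither did its WT change of 0.37 at 3 h (adjusted p = 0.242).

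Markers of other cells were summed on the linear scale at 16 h. The 4 NK cell markers summed to 83.4 to 155 in KO and 152 to 255 in WT. The 6 macrophage and monocyte markers summed to 3258 to 9640 in KO and 2091 to 4474 in WT, the 5 neutrophil markers to 474 to 3149 and 778 to 905, and the 8 T cell markers to 351 to 499 and 336 to 427. The 5 B cell markers summed to 32837 to 41014 in KO and 27008 to 33940 in WT. The part of these cells in the Rcan1 difference was not tested.

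By Pearson correlation over the 24 arrays, the genes whose pattern was most like Rcan1 were Ezh2 (r = 0.895), Chml (0.877), Cish (0.869), Tnfsf14 (0.860), Trip13 (0.853) and Plscr1 (0.853). The median r of all genes with Rcan1 was 0.057. These correlations mix time and genotype and share arrays. The genes were picked on the same arrays, so the choice itself favours a genotype difference like that of Rcan1. At 16 h KO minus WT was -0.56 for Ezh2, the histone methyltransferase of the Polycomb complex (limma adjusted p = 0.0133), and -0.78 for Chml (adjusted p = 0.0116), which were both called. Cish, an inhibitor of cytokine receptor signalling, differed by -0.85 (adjusted p = 0.176), Tnfsf14, a TNF family ligand, by -3.65 (adjusted p = 0.101), Plscr1 by -0.95 (adjusted p = 0.226) and Trip13 by -0.28 (adjusted p = 0.773), none of which passed. The mean Tnfsf14 signal lay below the lowest filter level, 5.375, in every KO group (2.39 to 4.37) and in WT at 0, 3 and 8 h. Those WT means were 3.38, 3.90 and 4.69, and only the WT mean at 16 h, 8.02, lay above that level.

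Rcan3, another member of the Rcan family, was called as rising in KO cells and not in WT cells against 0 h. KO values were 6.76, 6.87 and 7.16 at 0 h, 6.48, 7.18 and 7.05 at 3 h, 8.17, 8.23 and 8.02 at 8 h, and 7.97, 7.59 and 7.63 at 16 h. WT values were 6.44, 7.07 and 7.25 at 0 h, 6.95, 5.89 and 6.46 at 3 h, 7.12, 7.40 and 7.58 at 8 h, and 7.06, 7.55 and 7.46 at 16 h. KO lay above WT without overlap at 8 and 16 h.

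The KO change in Rcan3 was 1.21 at 8 h (SE 0.289, limma adjusted p = 0.00203) and 0.80 at 16 h (adjusted p = 0.0329). The WT change was 0.45 at 8 h (adjusted p = 0.272) and 0.43 at 16 h (adjusted p = 0.268), although the WT step from 3 to 8 h was called (0.93, adjusted p = 0.0293), as was the KO step (1.24, adjusted p = 0.00366). The call of the WT step ended with quantile normalization (adjusted p = 0.0677), median scaling (0.128), the mean over probe sets (0.54), only the compared groups in the fit (0.113) and without the male-type arrays (0.291). It also ended without any 1 of WT replicates 2 and 3 at 3 h or at 8 h (adjusted p up to 0.184). The changes were not shown to differ: the KO change exceeded the WT change at 8 h by 0.76 (95% interval -0.08 to 1.61, adjusted p = 0.999). KO minus WT itself was 0.77 at 8 h (adjusted p = 0.702) and 0.41 averaged over the times (adjusted p = 0.255), in the direction opposite to Rcan1. The other Rcan3 probe set was above the filter level on only 3 of 24 arrays, and its changes in KO cells were negative, at -0.54 for 8 h and -0.75 for 16 h. The KO call at 16 h ended without any 1 of KO replicates 1 and 2 at 0 h or KO replicates 1 and 3 at 16 h (adjusted p from 0.0502 to 0.126). It also ended with median scaling (limma adjusted p = 0.0699), only the compared groups in the fit (0.0691) and the mean over probe sets (0.979). The KO call at 8 h ended with the mean over probe sets (0.672).

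Cabin1 fell at 16 h in WT cells and at 8 h in KO cells. WT values were 9.35, 9.42 and 9.21 at 0 h and 8.79, 8.56 and 9.09 at 16 h, without overlap, a change of -0.52 (SE 0.164, limma adjusted p = 0.014). KO values were 9.58, 9.34 and 9.10 at 0 h and 8.87, 8.65 and 8.70 at 8 h, without overlap, a change of -0.60 (adjusted p = 0.0062). The KO change at 16 h was -0.37 (adjusted p = 0.0835). The genotypes overlapped at every time, and the averaged difference was 0.0022 (95% interval -0.17 to 0.17). Both changes were of opposite sign in one dimmer Cabin1 probe set (0.39 and 0.08), and the WT call ended without WT replicate 2 at 0 h (adjusted p = 0.0549) or at 16 h (adjusted p = 0.0959). It also ended with quantile normalization, median scaling, the mean over probe sets and without the male-type arrays (adjusted p from 0.136 to 0.618), and the KO call at 8 h ended with median scaling (0.0922) and the mean over probe sets (0.248).

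The catalytic subunits Ppp3ca and Ppp3cc fell within 3 h of stimulation and stayed below their 0 h values in both genotypes. Ppp3ca, the alpha isoform, measured 11.41, 11.55 and 11.92 in WT at 0 h and 9.92, 10.03 and 10.40 at 3 h. In KO cells it measured 11.51, 11.40 and 11.91 at 0 h and 9.96, 10.12 and 10.44 at 3 h. All later values, 9.71 to 10.81, also lay below every 0 h value. The WT changes were -1.51, -1.42 and -1.69 at 3, 8 and 16 h, and the KO changes -1.43, -1.20 and -1.10 (SE 0.21 each). Each passed, with limma adjusted p of at most 0.000163, and each was also called in both other Ppp3ca probe sets.

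Ppp3cc, the gamma isoform, fell the most of the 7 genes at 3 h in both genotypes. WT values were 10.39, 10.27 and 10.23 at 0 h, 8.30, 8.38 and 8.36 at 3 h, 8.89, 8.73 and 8.89 at 8 h, and 8.54, 8.23 and 8.36 at 16 h. KO values were 10.06, 10.31 and 10.36 at 0 h, 8.02, 8.84 and 8.29 at 3 h, 9.23, 9.48 and 8.98 at 8 h, and 8.66, 9.18 and 9.14 at 16 h. WT and KO overlapped at 0 and 3 h and did not overlap at 8 and 16 h, where KO lay higher. At 3 h the fall was 1.95 in WT (3.87-fold, limma adjusted p = 8.38e-09) and 1.86 in KO (3.63-fold, adjusted p = 1.87e-08). The means of the second Ppp3cc probe set climbed after 3 h in both genotypes. At 0, 3, 8 and 16 h they were 9.71, 7.87, 8.33 and 8.58 in WT. In KO they were 9.82, 8.04, 8.65 and 9.18.

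From 3 to 8 h Ppp3cc rose again by 0.84 in KO cells (adjusted p = 0.00208), and its WT difference was 0.49 (adjusted p = 0.0723). KO minus WT was 0.39 at 8 h and 0.62 at 16 h (95% interval 0.24 to 1.00, limma adjusted p = 0.195). Ppp3ca likewise lay higher in KO at 16 h without overlap (10.25, 10.45 and 10.81 against 9.82, 9.78 and 10.21), a difference of 0.57 (95% interval 0.13 to 1.00, adjusted p = 0.426). Neither difference passed in this fit, which has no block for replicate number, and neither gene's change from 0 h was shown to differ between genotypes at 16 h (0.67 for Ppp3cc and 0.59 for Ppp3ca, adjusted p = 1 for both). The second Ppp3cc probe set differed by 0.60 at 16 h (adjusted p = 0.223). In both other Ppp3ca probe sets the genotypes overlapped at 16 h. One ran from 9.54 to 10.15 in KO and from 9.48 to 9.87 in WT. The other ran from 9.23 to 10.12 in KO and from 8.75 to 9.70 in WT. With the replicate number as a fixed block, the Ppp3ca difference at 16 h was called (limma adjusted p = 0.00831).

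Ppp3cb, the beta isoform, did not pass the test at 3 or 8 h, when both other catalytic genes fell. WT values were 11.66, 11.79 and 11.98 at 0 h, 11.62, 11.68 and 12.03 at 3 h, 11.77, 11.68 and 11.99 at 8 h, and 11.28, 11.07 and 11.67 at 16 h. KO values were 11.58, 11.60 and 11.91 at 0 h, 11.59, 11.59 and 12.01 at 3 h, 11.74, 11.69 and 12.03 at 8 h, and 11.27, 11.17 and 11.62 at 16 h. Changes at 3 and 8 h lay between -0.03 and 0.12, and the widest of their 95% intervals reached -0.37 and 0.46. At 16 h the change was -0.47 in WT (limma adjusted p = 0.0257) and -0.34 in KO (adjusted p = 0.117), and the 16 h arrays overlapped the 0 h arrays in both genotypes. The averaged genotype difference was -0.03 (95% interval -0.21 to 0.14). The WT call ended without any 1 of WT replicates 2 and 3 at 0 h or WT replicates 1 and 2 at 16 h (adjusted p up to 0.163) and in 3 of the 4 other Ppp3cb probe sets. It also ended with median scaling (limma adjusted p = 0.288), the mean over probe sets (0.0533) and without the male-type arrays (0.228).

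**Figure D3:**
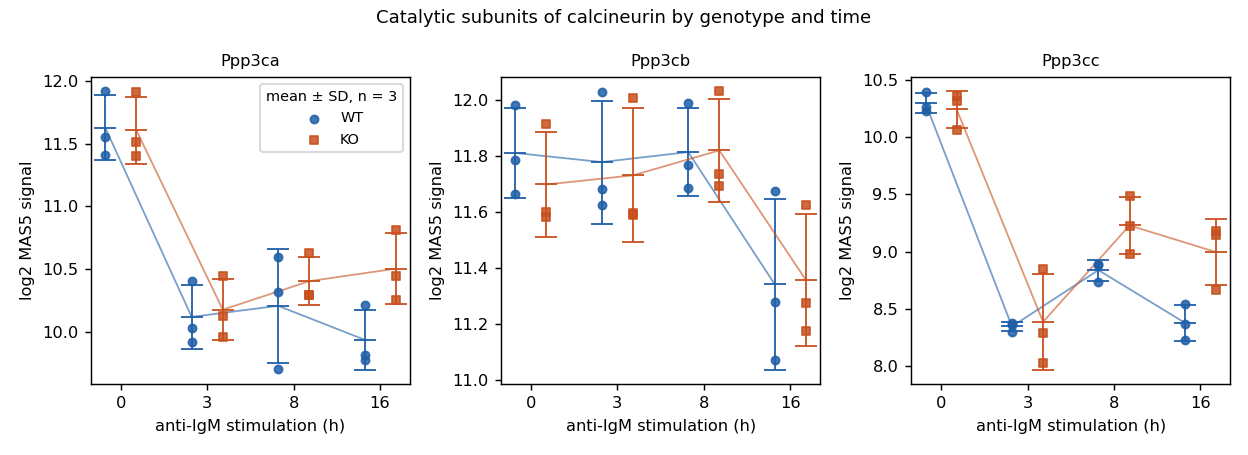
Log2 signal of the catalytic subunits against hours of anti-IgM; points are single arrays (blue circles WT, orange squares KO), and bars give the mean ± SD of 3 arrays. Ppp3ca and Ppp3cc drop by between 1.43 and 1.95 at 3 h in both genotypes, while Ppp3cb changes by no more than 0.12 up to 8 h; each panel has its own axis.

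Ppp3r1 encodes the calcium-binding B subunit. With its brightest probe set, the deposited scaling and no block for replicate number, it passed the test in no comparison. Its values were 10.80, 10.63 and 11.40 at 0 h, 10.39, 10.33 and 10.67 at 3 h, 10.89, 10.81 and 11.12 at 8 h, and 10.67, 10.53 and 10.94 at 16 h in WT. In KO they were 10.75, 10.84 and 11.16 at 0 h, 10.19, 10.49 and 10.66 at 3 h, 11.03, 10.63 and 11.25 at 8 h, and 10.76, 10.61 and 11.34 at 16 h. The 3 h group had the lowest mean in both genotypes. The 3 h change was -0.48 in WT (limma adjusted p = 0.07) and -0.47 in KO (adjusted p = 0.0754). With the mean over both probe sets the 3 h change was called in WT (-0.35, adjusted p = 0.0153) and KO (-0.52, adjusted p = 0.000597), and with quantile normalization in WT (adjusted p = 0.0488). The averaged genotype difference was 0.04 (95% interval -0.17 to 0.25).

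**Figure D4:**
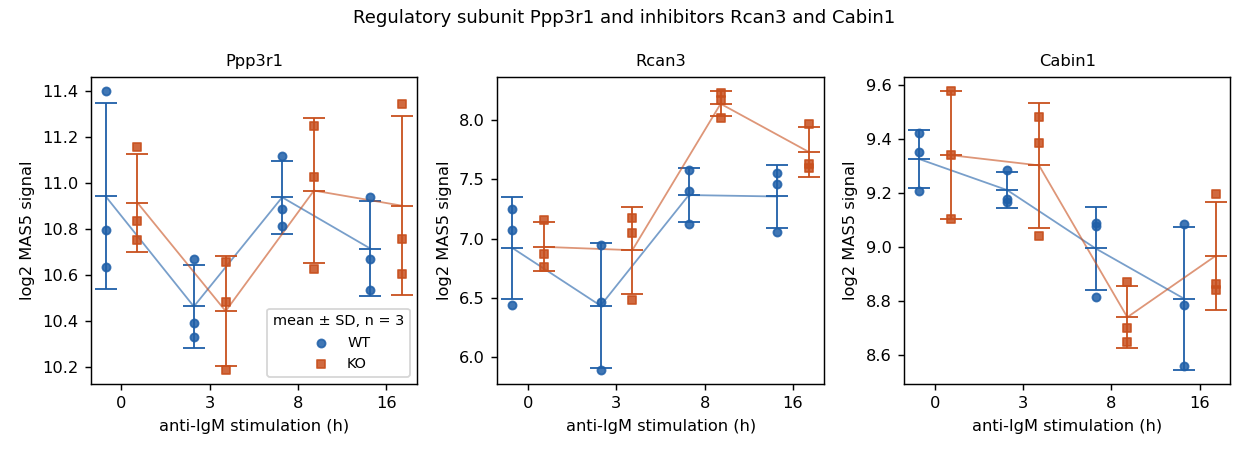
Log2 signal of Ppp3r1, Rcan3 and Cabin1 against hours of anti-IgM; points are single arrays (blue circles WT, orange squares KO), and bars give the mean ± SD of 3 arrays. Rcan3 in KO reaches 8.02 to 8.23 at 8 h, above the WT values of 7.12 to 7.58, whereas the genotypes overlap at all times for Cabin1 and Ppp3r1; each panel has its own axis.

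Replicate 3 was the highest of its group in all 8 groups for Ppp3ca, Ppp3cb and Ppp3r1. For Rcan1 replicate 3 was the highest in 2 of 8 groups and replicate 2 in 6. The pattern was not shared by every probe set of these genes: in the second Ppp3r1 probe set replicate 3 was the highest in 0 groups, and in a dimmer Ppp3cb probe set in 1.

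Counted together, KO minus WT called 0 of the 7 genes at 0, 3 and 8 h, where 0.0349%, 0.0559% and 0.0978% of all genes were called. It called 1, Rcan1, at 16 h and in the average over the times, against 0.615% and 1.21% of all genes. Unadjusted p was under 0.05 for 500, 531 and 777 genes at 0, 3 and 8 h. By the brightest probe set of each gene, the genotypes did not overlap for 3 of the 7 genes at 8 h and 4 at 16 h, against 9.49% and 10.2% of all genes. The median KO minus WT difference of the 7 at 16 h was 0.19, against 0.01 over all genes.

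Against 0 h, WT cells called 3 of the 7 genes at 3 h (1 higher, 2 lower), 3 at 8 h (1 higher, 2 lower) and 5 at 16 h (1 higher, 4 lower). Of all genes 38.3%, 33.4% and 39.4% were called at these times, with 17%, 17.7% and 20.9% higher and 21.3%, 15.7% and 18.5% lower. KO cells called 2 at 3 h (0 higher, 2 lower), 4 at 8 h (1 higher, 3 lower) and 4 at 16 h (2 higher, 2 lower), against 38.3%, 31.7% and 35.9% of all genes (16.6%, 17.3% and 19.4% higher, 21.7%, 14.4% and 16.4% lower). For 7 genes the shares called in either direction come to between 2 and 3 genes. Between 3 and 8 h, 2 of the 7 were called in WT and 3 in KO (15.9% and 19.2% of all genes), and between 8 and 16 h 1 in WT and 0 in KO (7.75% and 4.66%, where 2367 genes had an unadjusted limma p below 0.05 in KO). Both WT calls between 3 and 8 h, Rcan1 and Rcan3, ended in part of the alternatives, as given above. Among the KO calls between 3 and 8 h, that of Cabin1 (-0.56) held in 9 of 14 alternatives, that of Rcan3 in 11 of 13 and that of Ppp3cc in 13 of 13. The WT count at 16 h was 3 without WT replicate 2 at 0 h or at 16 h, and without the 4 male-type arrays.

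**Figure D5:**
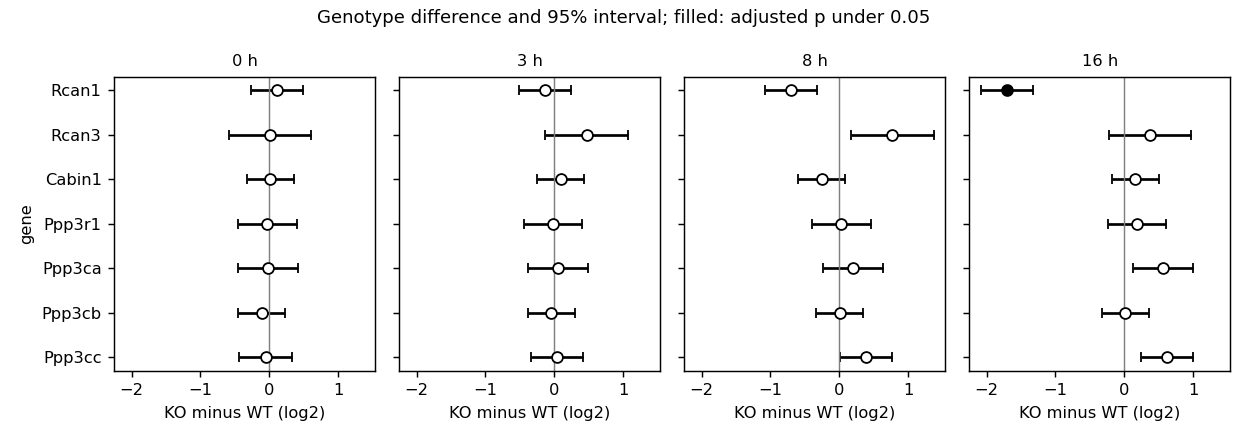
KO minus WT difference in log2 signal (points) with its 95% interval (bars) for the 7 genes at each time; filled points have an adjusted p under 0.05. Rcan1 moves from 0.11 at 0 h to -1.70 at 16 h and is the only filled point, while Rcan3, Ppp3ca and Ppp3cc lie to the right of 0 at 16 h with open points.

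Other genes of the calcineurin pathway came from 7 lists with 37 names, of which 28 were tested. The 3 calmodulins, Ppia, Chp1 and Itpr1 had no probe set with 1 gene symbol, and Rcan2, Chp2 and Ppp3r2 did not pass the filter. In the averaged KO minus WT comparison 1 of the 28 was higher, Nfatc1, and 0 were lower, where 1.21% of all genes were called. WT cells called 16 at 3 h (8 higher, 8 lower), 13 at 8 h (5 higher, 8 lower) and 16 at 16 h (6 higher, 10 lower), where 38.3%, 33.4% and 39.4% of all genes were called. KO cells called 15 at 3 h (8 higher, 7 lower), 10 at 8 h (4 higher, 6 lower) and 10 at 16 h (4 higher, 6 lower), beside 38.3%, 31.7% and 35.9% of all genes. The list median at 16 h was -0.19 in WT and -0.10 in KO, beside 0.05 and 0.08 over all genes.

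Fkbp1a, which encodes FKBP12, the protein through which tacrolimus inhibits calcineurin, rose by 1.77 in WT and 1.46 in KO at 16 h (limma adjusted p = 1.31e-11 and 4.88e-10). Among the anchors that tether calcineurin, Akap5 rose at 3 h by 1.89 in WT and 1.61 in KO and was back at 0.05 and -0.24 by 16 h. Akap1 rose at 3 h by 2.96 in WT and 1.49 in KO, both called. The test of a different change in the genotypes called no gene at 3 h, so these rises were not shown to differ. Of 9 measured substrates, 5 fell at 3 h in each genotype, where 21.3% of all genes fell in WT and 21.7% in KO. They included Nfatc2, another calcineurin-dependent NFAT factor (-1.27 in WT, -1.41 in KO), Tfeb, a lysosomal transcription factor (-1.46 and -1.27), and Crtc3, a CREB coactivator (-1.02 and -0.88). Nfatc1 was the 1 substrate that rose at 3 h, by 1.30 and 1.66.

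Of the 4 MEF2 factors, 2 fell in WT and 1 in KO at 16 h, when 18.5% and 16.4% of all genes fell. Mef2d fell by 1.27 in WT and 1.11 in KO, and Mef2c by 1.03 in WT, while its KO change of -0.45 did not pass (limma adjusted p = 0.0834). Of the 7 kinases that return NFAT to the cytoplasm, 3 changed in WT and 0 in KO at 16 h, when 39.4% and 35.9% of all genes changed. Dyrk1a fell by 0.74 in WT at 16 h (adjusted p = 0.00101), and its KO change was -0.43 (adjusted p = 0.0516). Of the 4 genes of the HIRA histone chaperone, to which Cabin1 belongs, Hira rose by 0.89 and Asf1a by 0.68 in WT at 16 h, and Ubn1 fell by 0.45 and Ubn2 by 0.47. In KO cells Asf1a rose by 0.42 and Ubn1 fell by 0.41 at that time, and Hira (0.42) and Ubn2 (-0.11) did not pass. For the 28 genes together the test of a different change in the genotypes called 0 at 16 h, where 0.021% of all genes were called.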

How the data were processed

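The deposited values are log2 signals per probe set, made with MAS5 per the submitters' processing notes; the version is not given in the sources used here. Of 45101 probe sets, 64 controls were left out and 34945 carried 1 gene symbol. A probe set was kept if above its own array's 40th percentile on at least 3 arrays, and the brightest stood for its gene (14318 genes). limma 3.58.1 in R 4.3.3 fitted 1 mean per group over 24 arrays (16 residual and 6.79 prior degrees of freedom), using eBayes with trend and Benjamini-Hochberg adjustment over all genes. The threshold was 0.05. Precision is set by the 3 arrays a group. Simulated data were used to check the fit. Named were the members, list genes, and the 6 genes most like Rcan1. Members and lists were chosen with earlier results of these data known. Alternatives were other scalings, filters, probe sets, variance models, replicate blocks and left-out arrays; leaving out the 2 arrays of highest median was added after the data had been seen.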

Additional observations from a re-analysis of the deposited data

Results flagged for a closer look

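The KO change minus the WT change of Rcan1 at 16 h was -1.81 (SE 0.259, limma adjusted p = 0.00316), so the change under anti-IgM differed between the genotypes by the test of the difference itself. All 3 KO arrays at 16 h lay below all 3 WT arrays, and the genotypes overlapped at 0 h.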

How the results depend on the processing

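Of 2000 alternative values for 54 results, 1871 kept their direction and side of the threshold or, for the 9 counts of members called, lay within 1.5 times the count reported. The Rcan1 differences at 16 h and averaged over the times kept theirs in all alternatives run, as did the 6 changes from 0 h of Ppp3ca and of Ppp3cc. With left-out arrays included, the Rcan1 ranges were -1.84 to -1.53 and -0.69 to -0.53. The call of Cabin1 from 3 to 8 h in KO (-0.56, limma adjusted p = 0.0176) ended with median scaling (0.0829), only the compared groups in the fit (0.0552) and in both other probe sets (0.231 and 0.171). It also ended without KO replicate 1 or 2 at 3 h or KO replicate 2 or 3 at 8 h (0.0566 to 0.0879). Leaving out the 2 arrays of highest median, chosen after seeing the data, ended it too (limma adjusted p = 0.06). The difference in Rcan1 change at 16 h did not pass with arrays scaled to their medians (-1.90), without the male-type arrays (-1.62) or in the other probe set (-1.61); in the first 2 cases the count of members called fell to 0. Its F lost the call with quantile normalization (16.8), median scaling (12.03), every probe set on its own (18.9), no trend (19.1) and no male-type arrays (14.02), and ranged from 15.02 to 23.9 over left-out arrays, where 16 of 24 kept it. The cause was not tested.

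Signs turned in the dim Rcan3 probe set (KO 8 h -0.54, KO 16 h -0.75, KO minus WT -0.20 averaged and -0.29 at 8 h) and in one Cabin1 probe set (WT 16 h 0.39, KO 8 h 0.0795, KO 16 h 0.23). The WT count at 16 h was 3 with median scaling, the mean over probe sets or no male-type arrays, and 3 to 5 over left-out arrays; the KO count at 8 h was 2 with the mean over probe sets. Median scaling moved the median change of all genes at 3 h in WT from -0.14 to 0.09, and Ppp3ca and Ppp3cc fell under it too.

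Same-numbered arrays of the 2 genotypes at the same time correlated at 0.0159 to 0.222 in their deviations (median 0.0733, over 0.1 in 3 of 12 pairs). Differently numbered arrays correlated at -0.182 to 0.123 (median -0.052, over 0.1 in 1 of 24 pairs). The same-numbered pairs thus lay higher, but the labels do not say that the numbers pair samples. The main fit has no block for them, and the calls that follow depend on that choice. With the replicate number as a fixed block, the KO minus WT count at 16 h was 2, with Ppp3ca added (adjusted p = 0.00831). The block also called the 3 h change of Ppp3r1 (limma adjusted p = 0.00115 in WT, 0.00134 in KO) and the 16 h change in KO of Ppp3cb (0.000767) and Cabin1 (0.0485). A random block of genotype and number (correlation 0.208) called the last 4 as well (adjusted p = 0.0168, 0.0187, 0.03 and 0.0411) and kept the averaged Rcan1 difference (adjusted p = 0.0173). In the averaged KO minus WT comparison the random block called 46 of all 14318 genes, where the main fit called 173. Signal near the filter level limits Rcan3.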
